A study of Mus musculus with 14 samples.

Results

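The genes described here encode matricellular and adhesive glycoproteins of the extracellular matrix: thrombospondins 1 to 4 (Thbs1, Thbs2, Thbs3, Thbs4), tenascin C (Tnc), periostin (Postn), TGF-beta-induced protein (Tgfbi), fibronectin (Fn1) and vitronectin (Vtn). They were chosen by name, with earlier results of these data known. Each symbol matched a single Ensembl identifier, giving 9 of the 47729 genes listed in every count table. The study sequenced messenger RNA of mouse kidney in 4 groups. SMOC2_UUO (4 libraries) is kidney of mice labelled as Smoc2 transgenic, taken at day 7 of unilateral ureteral obstruction (UUO, closure of the ureter of a single kidney, a standard model of kidney fibrosis), and SMOC2_normal (3 libraries) is untreated kidney of the same label. WT_UUO (4 libraries) and WT_normal (3 libraries) are the obstructed and untreated kidneys of wild-type mice. SMOC2 is itself a secreted matrix glycoprotein, of the SPARC family. Neither the promoter that drives the transgene nor the age of the mice is given in the sources used here. A protocol note attached to all samples describes folic acid injection of male Balb/c mice, which the genotype and treatment labels do not mention, so the groups follow those labels. The labels do not state that every library came from a separate animal, so a p-value here reflects only how far these libraries spread, and that spread may be technical.

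Matricellular proteins are secreted into the matrix but act mainly on cells: they bind integrins, CD36, CD47 and other receptors and hold or release growth factors, and most are scarce in healthy adult tissue and abundant during development and wound repair. Fibronectin and vitronectin are adhesive proteins that also circulate in plasma, made chiefly in the liver, while fibroblasts in injured tissue deposit a cellular form of fibronectin. In the fibrotic kidney, fibronectin, tenascin C and periostin are widely used as markers of the expanded interstitium between the tubules.

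Library totals ran from 19483994 to 30033405 counts. Levels are in CPM, counts relative to the library size after scaling by trimmed mean of M-values (TMM). Smoc2, the gene of the transgene, was at 124, 89.9, 83.9 and 87.1 CPM in SMOC2_UUO libraries 1 to 4, against 150, 131, 158 and 148 CPM in WT_UUO libraries 1 to 4, so every library labelled transgenic lay below every wild-type one. In untreated kidney it was at 27.8, 26.9 and 10.6 CPM in SMOC2_normal libraries 1, 3 and 4, against 12.6, 19.7 and 43.3 CPM in WT_normal libraries 1, 2 and 3, and the groups overlapped. Smoc2 counts thus showed no excess in the libraries labelled transgenic (log2 difference -0.61 after obstruction, edgeR adjusted p = 0.389, and -0.22 in untreated kidney, adjusted p = 0.850), and each direction between genotypes below is one between labels. All 9 defining kidney markers examined, from Slc34a1 of the proximal tubule to Nphs1 of the podocyte averaged 1 CPM or more in every group. Their summed levels were 3402 to 3971 CPM in SMOC2_UUO and 2601 to 5466 CPM in WT_UUO, against 18002 to 23192 CPM in SMOC2_normal and 19841 to 21705 CPM in WT_normal. No sequencing date or batch is given in the labels.

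After 7 days of obstruction, thrombospondins 1 to 4, tenascin C, periostin, TGFBI and fibronectin rose under both genotype labels, and vitronectin fell in the kidneys labelled transgenic. Tenascin C and thrombospondin 2 had the largest folds of the 9 in both comparisons, and thrombospondins 1 and 3 were among the genes with the smallest. All 9 genes passed the filter on low counts. In SMOC2_UUO against SMOC2_normal, all 9 changed at an edgeR adjusted p under 0.05, where 62.8% of the 17926 genes tested changed: 8 were higher, where 32.5% of all genes were, and 1 was lower, where 30.4% were. In WT_UUO against WT_normal, 8 of 9 changed, where 61.1% of all genes changed. These 8 were higher, where 31.3% of all genes were, and 0 of 9 were lower by edgeR, by DESeq2 and by limma-voom, where edgeR called 29.8% of all genes lower. At an unadjusted p under 0.05, all 9 passed in each comparison, where 66.2% of all genes passed in SMOC2_UUO and 64.5% in WT_UUO. Levels did not overlap between obstructed and untreated libraries for 8 of 9 genes in SMOC2_UUO, where 62.7% of all genes did not, and for 9 of 9 in WT_UUO, where 60.8% did not. The WT_UUO count includes Vtn, whose unscaled counts overlapped. The median log2 change of the 9 genes was 1.99 in SMOC2_UUO and 2.65 in WT_UUO, against 0.04 and 0.05 over all genes tested. In counts of RNA from whole tissue, fewer cells of a type and less RNA per cell cannot be told apart.

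**Figure D1:**
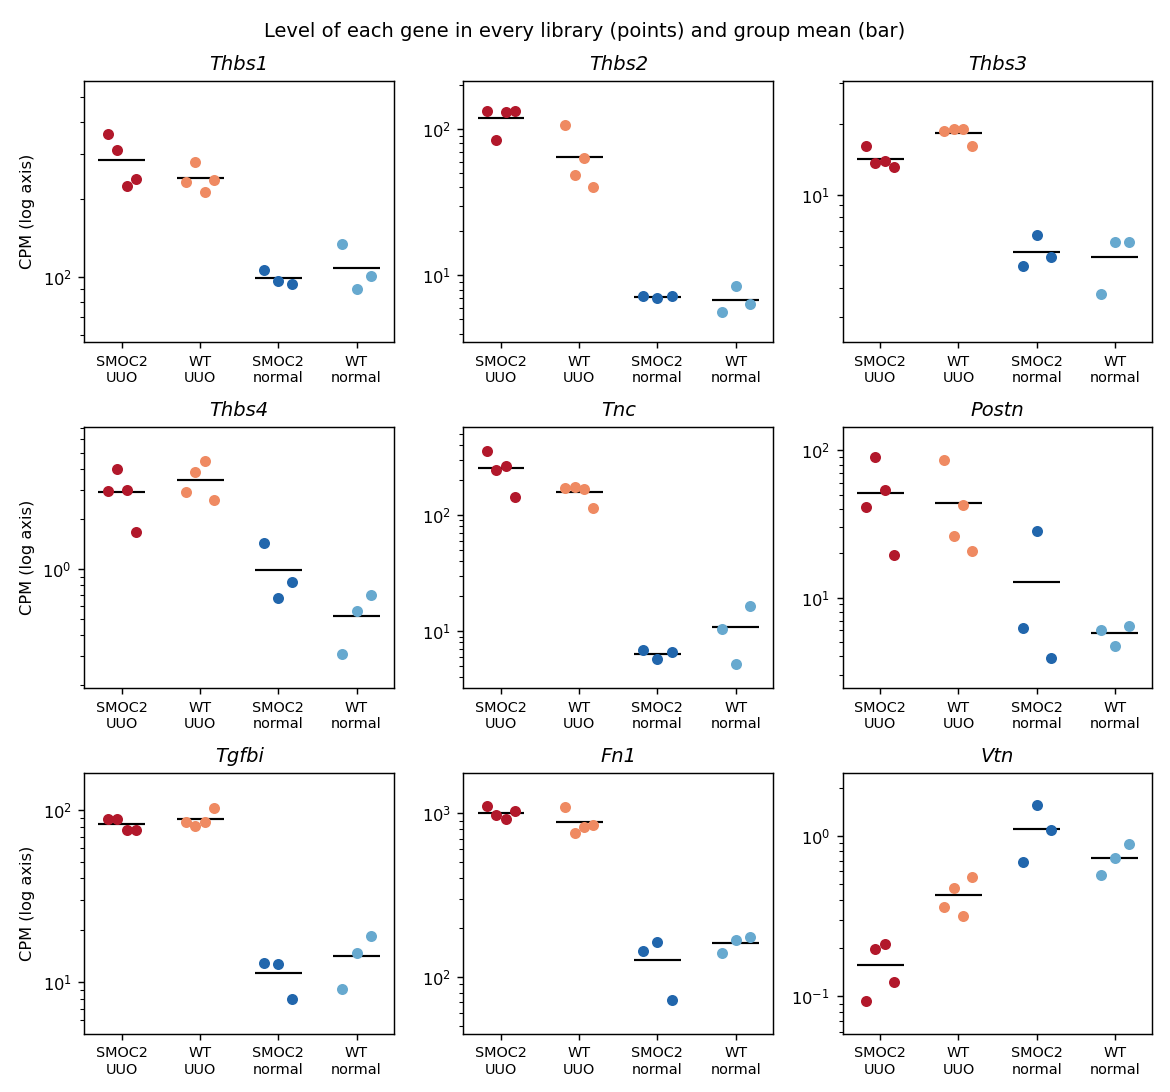
Level of each of the 9 genes in CPM on a log axis, with a point for each library and a bar at the group mean. Obstructed libraries lie above untreated ones of the same label for Thbs1, Thbs2, Thbs3, Thbs4, Tnc, Tgfbi and Fn1, the Postn groups labelled SMOC2 overlap through the 28.2 CPM of library 3, and Vtn runs the other way.

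**Figure D2:**
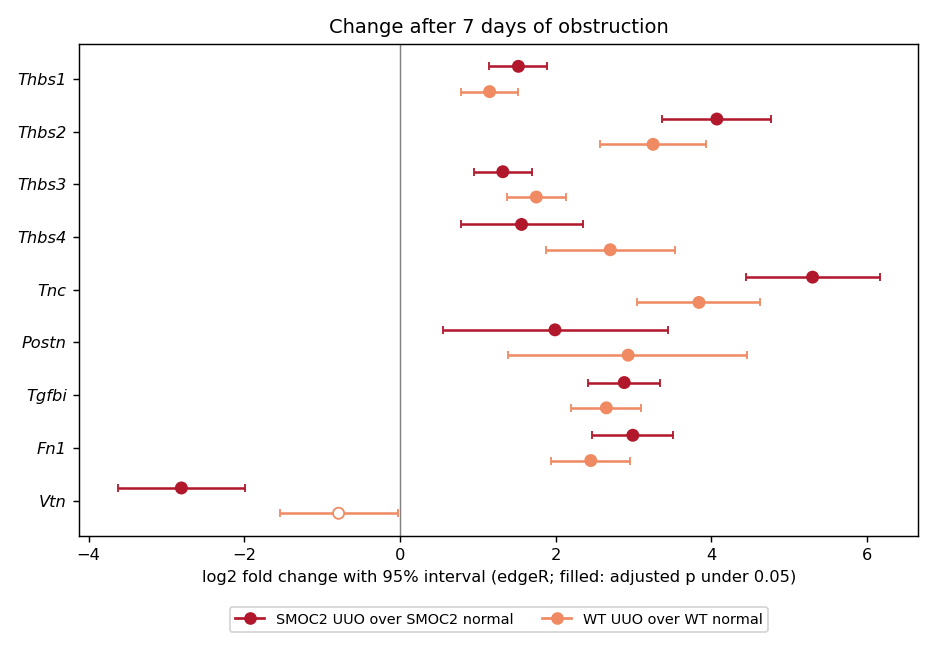
log2 fold change of each gene after obstruction, with its 95% interval, in kidneys labelled SMOC2 and in wild-type kidneys; filled points passed the edgeR test at an adjusted p under 0.05. Tnc lies farthest to the right, at 5.30 and 3.84, and the open point is Vtn in wild type at -0.79.

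Thrombospondin 1 is a trimeric glycoprotein, also stored in platelets, that can activate latent TGF-beta and inhibits angiogenesis through CD36 and CD47. Its gene Thbs1 (ENSMUSG00000040152) lies on the plus strand of chromosome 2 from 118111876 to 118127133 (build mm10). It was at 359, 311, 226 and 239 CPM in SMOC2_UUO libraries 1 to 4, against 107, 96.8 and 94.5 CPM in SMOC2_normal libraries 1, 3 and 4. In wild type it was at 234, 278, 214 and 238 CPM in WT_UUO libraries 1 to 4, against 135, 89.7 and 101 CPM in WT_normal libraries 1, 2 and 3. The lowest obstructed library was above the highest untreated one under each label. The rise was 2.86-fold in SMOC2_UUO (log2 1.52, SE 0.17, edgeR adjusted p = 3.79e-06) and 2.22-fold in WT_UUO (log2 1.15, SE 0.17, edgeR adjusted p = 4.83e-05). Of 5 platelet markers 4 could be tested, and 3 rose and 1 fell under each label. Over all genes, 32.5% rose and 30.4% fell in SMOC2_UUO, and 31.3% rose and 29.8% fell in WT_UUO. Pf4 was at 8.60 ± 4.95 CPM in SMOC2_UUO (SD, n = 4) against 0.440 ± 0.336 CPM in SMOC2_normal (SD, n = 3). Itga2b, the most abundant of the 5 in untreated kidney, was at 6.54 ± 0.841 CPM in SMOC2_UUO and 6.74 ± 1.5 CPM in WT_UUO (SD, n = 4 each), against 13.2 ± 0.938 CPM in SMOC2_normal and 11 ± 1.24 CPM in WT_normal (SD, n = 3 each). The summed platelet list, which includes Itga2b, was at 12.5 to 30.2 CPM in SMOC2_UUO and 14.2 to 24.1 CPM in WT_UUO. In untreated kidney the sum was 12.7 to 14.6 CPM in SMOC2_normal and 10.8 to 12.7 CPM in WT_normal. The library with the most Thbs1 had the lowest platelet sum of its group in SMOC2_UUO (library 1) and the joint lowest in WT_UUO (library 2). The part of platelets in the Thbs1 levels was not tested.

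Thrombospondin 2, the other trimeric member, binds matrix metalloproteinase 2 and shapes collagen fibrils in mice. Thbs2 (ENSMUSG00000023885) lies on the minus strand of chromosome 17 from 14665500 to 14694235. It stood at 133, 84.4, 130 and 132 CPM in SMOC2_UUO libraries 1 to 4, against 7.26, 6.99 and 7.19 CPM in SMOC2_normal libraries 1, 3 and 4. The WT_UUO libraries 1 to 4 had 106, 48.3, 63.7 and 40.0 CPM, against 5.60, 8.50 and 6.35 CPM in WT_normal libraries 1, 2 and 3. All obstructed libraries were thus well above all untreated ones, and the obstructed wild-type libraries were spread more widely, from 40.0 to 106 CPM. Thbs2 rose 16.8-fold in SMOC2_UUO (log2 4.07, SE 0.33, edgeR adjusted p = 1.50e-07) and 9.52-fold in WT_UUO (log2 3.25, SE 0.32, edgeR adjusted p = 8.86e-07). Thbs1 and Thbs2 therefore changed unequally. Per kilobase of exon, Thbs1 was 2.01 to 4.25 times as abundant as Thbs2 in the SMOC2_UUO libraries, against 15.2 to 16.9 times in SMOC2_normal, and 2.55 to 6.86 times in the WT_UUO libraries, against 12.2 to 27.7 times in WT_normal.

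Thrombospondins 3 and 4 assemble as pentamers and are best known from bone, tendon and muscle. Thbs3 (ENSMUSG00000028047, plus strand of chromosome 3 from 89215180 to 89226837) was at 16.2, 13.6, 13.9 and 13.1 CPM in SMOC2_UUO libraries 1 to 4, against 4.95, 6.71 and 5.42 CPM in SMOC2_normal libraries 1, 3 and 4. It was at 18.7, 19.1, 19 and 16.2 CPM in WT_UUO libraries 1 to 4, against 3.75, 6.26 and 6.27 CPM in WT_normal libraries 1, 2 and 3. The groups did not overlap under either label. The rise was 2.50-fold in SMOC2_UUO (log2 1.32, SE 0.17, edgeR adjusted p = 1.44e-05) and 3.37-fold in WT_UUO (log2 1.75, SE 0.17, edgeR adjusted p = 1.15e-06). The exons of Thbs3 share 318 bases with those of Mtx1 on the opposite strand, and since the strand setting of the counting is not given in the sources used here, reads there may belong to either gene. Mtx1 was at 31.4 ± 2.68 CPM in SMOC2_UUO and 30.7 ± 1.13 CPM in WT_UUO (SD, n = 4 each), against 50.1 ± 3.42 CPM in SMOC2_normal and 45.9 ± 6.82 CPM in WT_normal (SD, n = 3 each), and so ran opposite to Thbs3.

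Thbs4 (ENSMUSG00000021702, minus strand of chromosome 13 from 92751590 to 92794818) was scarce, with 41 to 100 counts in the SMOC2_UUO libraries, against 12 to 23 in SMOC2_normal, and 61 to 126 in WT_UUO, against 7 to 18 in WT_normal. On the CPM scale it was at 2.93, 3.96, 2.97 and 1.66 in SMOC2_UUO libraries 1 to 4, against 1.44, 0.666 and 0.833 in SMOC2_normal libraries 1, 3 and 4, so library 4 of the obstructed group lay close to library 1 of the untreated one. WT_UUO libraries 1 to 4 had 2.91, 3.80, 4.46 and 2.61 CPM, against 0.309, 0.559 and 0.701 CPM in WT_normal libraries 1, 2 and 3, a clear gap. Thbs4 rose 2.96-fold in SMOC2_UUO (log2 1.56, SE 0.36, edgeR adjusted p = 0.00184) and 6.51-fold in WT_UUO (log2 2.70, SE 0.38, edgeR adjusted p = 3.18e-05). Of the 6 tendon and muscle markers, the tendon transcription factor gene Scx was at 13.8 ± 5.04 CPM in SMOC2_UUO (SD, n = 4), against 2.63 ± 0.379 CPM in SMOC2_normal (SD, n = 3). Myh1 went the other way, at 0.199 ± 0.174 CPM in SMOC2_UUO against 5.07 ± 1.17 CPM in SMOC2_normal. Mylpf was also lower, at 1.02 ± 0.303 CPM in SMOC2_UUO against 2.0 ± 0.562 CPM in SMOC2_normal. Of the 4 markers of the list that could be tested, 1 rose and 2 fell in SMOC2_UUO, and 2 rose and 1 fell in WT_UUO. Over all genes, 32.5% rose and 30.4% fell in SMOC2_UUO, and 31.3% rose and 29.8% fell in WT_UUO. The summed list was at 9.05 to 22.3 CPM in SMOC2_UUO and 12.7 to 19.7 CPM in WT_UUO, against 9.27 to 10.5 CPM in SMOC2_normal and 8.22 to 8.86 CPM in WT_normal. Scx made up most of the sum in the obstructed groups. The part of this list in the Thbs4 result was not tested. The muscle gene Ckm had 0 counts in both untreated groups.

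Tenascin C is a six-armed glycoprotein that loosens cell adhesion and marks sites of active matrix remodelling. Tnc (ENSMUSG00000028364) lies on the minus strand of chromosome 4 from 63959785 to 64047015. It was at 359, 246, 263 and 144 CPM in SMOC2_UUO libraries 1 to 4, against 6.89, 5.72 and 6.61 CPM in SMOC2_normal libraries 1, 3 and 4. In wild type it was at 171, 174, 167 and 114 CPM in WT_UUO libraries 1 to 4, against 10.5, 5.20 and 16.6 CPM in WT_normal libraries 1, 2 and 3. Every obstructed library was several times above every untreated one, and library 4 was the lowest of each obstructed group. Tnc rose 39.5-fold in SMOC2_UUO (log2 5.30, 95% interval 4.44 to 6.17, edgeR adjusted p = 9.17e-08), the 171st largest log2 change of 17926 genes. It rose 14.3-fold in WT_UUO (log2 3.84, 95% interval 3.05 to 4.63, edgeR adjusted p = 7.91e-07). The opposite-strand gene 8030451A03Rik, which shares 176 exonic bases with Tnc, had 78 counts over the SMOC2_UUO libraries, against 1 over SMOC2_normal, and 77 over WT_UUO, against 1 over WT_normal. Thbs1 and Fn1 likewise share exonic bases with opposite-strand genes, Gm29233 and Apol7d, which had at most 17 counts over any group.

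Periostin and TGFBI share fasciclin-like domains; periostin promotes collagen cross-linking, and TGFBI, named for its induction by TGF-beta, links collagens to integrins. Postn (ENSMUSG00000027750, plus strand of chromosome 3 from 54361109 to 54391037) was the most variable of the 9 within the obstructed groups. Its levels were 41.1, 90.1, 53.6 and 19.6 CPM in SMOC2_UUO libraries 1 to 4, against 6.26, 28.2 and 3.91 CPM in SMOC2_normal libraries 1, 3 and 4, so untreated library 3 lay above obstructed library 4. In wild type they were 85.3, 26.3, 42.6 and 20.6 CPM in WT_UUO libraries 1 to 4, against 6.04, 4.70 and 6.43 CPM in WT_normal libraries 1, 2 and 3, with no overlap. Postn rose 3.99-fold in SMOC2_UUO (log2 1.99, SE 0.67, edgeR adjusted p = 0.0185) and 7.60-fold in WT_UUO (log2 2.93, SE 0.71, edgeR adjusted p = 0.00268). The call in SMOC2_UUO rested on single libraries: without SMOC2_normal library 3 the log2 change was 3.34, while without SMOC2_normal library 1 or 4 it was 1.67 or 1.56 (adjusted p = 0.0759 and 0.0739) and without SMOC2_UUO library 2 it was 1.57 (adjusted p = 0.0569).

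The obstructed library with the most Postn in each group also had the most urothelial marker RNA, which comes from the lining of the renal pelvis and ureter. The 6 urothelial markers summed to 40.6, 152, 48.7 and 47.9 CPM in SMOC2_UUO libraries 1 to 4, against 6.14, 3.77 and 9.16 CPM in SMOC2_normal libraries 1, 3 and 4. They summed to 308, 25.6, 64.1 and 19.7 CPM in WT_UUO libraries 1 to 4, against 15.6, 4.25 and 24.9 CPM in WT_normal libraries 1, 2 and 3. In untreated kidney the labels differed: SMOC2_normal library 3, with the most Postn, had the least urothelial RNA, while WT_normal library 3 had the most of both. In every group, the library with the most Postn also had the highest sum of the 8 fibroblast and myofibroblast markers. That sum was 5004 CPM in SMOC2_UUO library 2 and 4941 CPM in WT_UUO library 1. It was 363 CPM in SMOC2_normal library 3 and 575 CPM in WT_normal library 3. Library 4 of each obstructed group had the least of both, while in WT_normal the lowest sum was in library 1 and the least Postn in library 2. The part of urothelium or fibroblasts in the Postn levels was not tested.

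Tgfbi (ENSMUSG00000035493, plus strand of chromosome 13 from 56609523 to 56639562) varied little among obstructed libraries. It was at 88.1, 88.6, 76.4 and 76.3 CPM in SMOC2_UUO libraries 1 to 4, against 12.9, 12.8 and 8.02 CPM in SMOC2_normal libraries 1, 3 and 4. WT_UUO libraries 1 to 4 had 85.0, 81.0, 85.3 and 103 CPM, against 9.17, 14.8 and 18.5 CPM in WT_normal libraries 1, 2 and 3. The obstructed libraries of both labels fell within 76.3 to 103 CPM, far above all untreated ones. Tgfbi rose 7.34-fold in SMOC2_UUO (log2 2.88, SE 0.22, edgeR adjusted p = 9.03e-08) and 6.26-fold in WT_UUO (log2 2.65, SE 0.21, edgeR adjusted p = 1.69e-07).

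Fibronectin, the main early scaffold on which collagen fibrils are laid down, is encoded by Fn1 (ENSMUSG00000026193) on the minus strand of chromosome 1 from 71585520 to 71653200. It was at 1105, 980, 921 and 1030 CPM in SMOC2_UUO libraries 1 to 4, against 145, 164 and 72.0 CPM in SMOC2_normal libraries 1, 3 and 4. In wild type it was at 1086, 757, 828 and 852 CPM in WT_UUO libraries 1 to 4, against 140, 169 and 176 CPM in WT_normal libraries 1, 2 and 3. The groups were separated by a wide gap under both labels. Fn1 rose 7.96-fold in SMOC2_UUO (log2 2.99, SE 0.24, edgeR adjusted p = 1.55e-07) and 5.45-fold in WT_UUO (log2 2.45, SE 0.23, edgeR adjusted p = 8.17e-07). Fn1 alone held 52.5 to 62.2% of the counts of the 9 genes in SMOC2_UUO libraries and 54.5 to 61.5% in WT_UUO libraries. Together the 9 genes took 0.209 ± 0.0248% of a library's counts in SMOC2_UUO and 0.174 ± 0.0270% in WT_UUO (SD, n = 4 each), against 0.0221 ± 0.00546% in SMOC2_normal and 0.0264 ± 0.00209% in WT_normal (SD, n = 3 each).

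Vitronectin, the plasma adhesion protein that binds integrin alpha V, was barely detected. Vtn (ENSMUSG00000017344, plus strand of chromosome 11 from 78499091 to 78502324) had 3, 5, 6 and 3 counts in SMOC2_UUO libraries 1 to 4, against 11, 28 and 21 in SMOC2_normal libraries 1, 3 and 4. It had 10, 14, 9 and 13 counts in WT_UUO libraries 1 to 4, against 13, 13 and 23 in WT_normal libraries 1, 2 and 3. In scaled levels the obstructed libraries lay below the untreated ones under both labels. Vtn was at 0.156 ± 0.0578 CPM in SMOC2_UUO (SD, n = 4) against 1.11 ± 0.433 CPM in SMOC2_normal (SD, n = 3). In wild type it was at 0.426 ± 0.108 CPM in WT_UUO (SD, n = 4) against 0.732 ± 0.161 CPM in WT_normal (SD, n = 3). The wild-type gap was narrow, from 0.556 CPM in WT_UUO library 4 to 0.573 CPM in WT_normal library 1, each with 13 counts. Unscaled counts overlapped in wild type, so this gap depended on the scaling. Vtn was 7.01-fold lower in SMOC2_UUO (log2 -2.81, SE 0.38, edgeR adjusted p = 1.94e-05). In WT_UUO the log2 difference was -0.79 (95% interval -1.54 to -0.03, edgeR adjusted p = 0.0658). Liver markers were low in the same libraries: the 6 markers summed to 0.903 to 1.26 CPM in SMOC2_UUO and 0.637 to 2.01 CPM in WT_UUO, against 10.1 to 79.0 CPM in SMOC2_normal and 10.4 to 21 CPM in WT_normal. The 79.0 CPM was that of SMOC2_normal library 3, where libraries 1 and 4 had 12.1 and 10.1 CPM. In that group the liver marker Ttr was at 24.3 ± 40.5 CPM (SD, n = 3). Of the 4 liver markers that could be tested, 0 rose and 3 fell in SMOC2_UUO, and 0 rose and 2 fell in WT_UUO. Over all genes, 32.5% rose and 30.4% fell in SMOC2_UUO, and 31.3% rose and 29.8% fell in WT_UUO. Ahsg had 0 counts in WT_normal, and the part of this list in the Vtn result was not tested.

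Promoter windows from RefSeq (GRCm38.p6, the mm10 build) of 250 bases before and 50 bases after the annotated start matched 7 of the 9 genes: Thbs2, Thbs3, Thbs4, Tnc, Postn, Tgfbi and Vtn. They were searched for the AP-1 site TGANTCA, the TEAD site CATTCC, the palindromic SMAD site GTCTAGAC and the CArG box of serum response factor on both strands, and for the TATA box TATAAA on the gene's strand. The windows of the steepest risers, Thbs2 and Tnc, and of the more variable Postn are shown for comparison with that of Vtn, the gene that fell in SMOC2_UUO, each written 5′ to 3′ on the gene's strand with every match in capitals. They are chr17:14694213-14694512 (minus), chr4:64046966-64047265 (minus), chr3:54360857-54361156 (plus) and chr11:78498870-78499169 (plus).
Thbs2: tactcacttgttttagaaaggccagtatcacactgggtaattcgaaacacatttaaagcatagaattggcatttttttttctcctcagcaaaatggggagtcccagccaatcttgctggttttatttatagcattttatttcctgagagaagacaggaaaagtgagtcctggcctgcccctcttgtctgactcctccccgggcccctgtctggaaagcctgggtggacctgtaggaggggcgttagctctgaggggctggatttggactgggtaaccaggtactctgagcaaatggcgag
Tnc: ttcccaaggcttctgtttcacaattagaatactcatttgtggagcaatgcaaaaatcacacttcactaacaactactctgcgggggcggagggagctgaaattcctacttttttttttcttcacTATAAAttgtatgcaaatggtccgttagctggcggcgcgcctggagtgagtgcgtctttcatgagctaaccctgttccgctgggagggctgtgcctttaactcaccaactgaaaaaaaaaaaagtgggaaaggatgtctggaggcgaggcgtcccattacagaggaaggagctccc
Postn: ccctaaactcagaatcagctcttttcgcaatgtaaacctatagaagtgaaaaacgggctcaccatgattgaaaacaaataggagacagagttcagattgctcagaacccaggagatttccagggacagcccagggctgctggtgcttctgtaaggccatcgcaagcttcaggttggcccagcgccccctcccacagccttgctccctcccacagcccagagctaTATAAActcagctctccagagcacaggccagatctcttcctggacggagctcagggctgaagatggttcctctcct
Vtn: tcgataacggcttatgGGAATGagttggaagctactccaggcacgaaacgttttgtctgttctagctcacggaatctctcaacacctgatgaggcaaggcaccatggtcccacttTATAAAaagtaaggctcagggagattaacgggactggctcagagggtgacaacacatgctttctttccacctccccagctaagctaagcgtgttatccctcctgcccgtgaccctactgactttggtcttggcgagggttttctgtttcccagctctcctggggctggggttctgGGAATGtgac
TATAAA occurred in 3 of the 7 windows, where 8.32% of 32817 RefSeq windows hold it. Counted from the annotated start, it lay at -26 to -21 in Postn, at -126 to -121 in Tnc and at -135 to -130 in Vtn. The table holds 2 windows each for Postn and Tnc, and the one whose start is nearest to the annotated gene start was used. CATTCC, present in 14.7% of all windows, occurred in 2 of the 7: at 2 overlapping places in Thbs4 and at 2 places in Vtn, where it reads GGAATG on the gene's strand. The AP-1, SMAD and CArG sites, present in 7.81%, 0.213% and 1.63% of all windows, had 0 matches in the 7. A match is a run of letters and not a measured binding site.

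Levels between genes can be compared only per length, here as mean CPM per kilobase of annotated exon. That length counts every annotated exon of a gene, so the order of genes depends on the annotation. In SMOC2_UUO the order was Fn1 (86.4 ± 6.68), Thbs1 (46.7 ± 10.3), Tnc (32.6 ± 11.3), Tgfbi (21.8 ± 1.83), Thbs2 (17.1 ± 3.37), Postn (5.87 ± 3.39), Thbs3 (2.95 ± 0.288), Thbs4 (0.876 ± 0.286) and Vtn (0.0770 ± 0.0285; SD, n = 4). Libraries of neighbours in that order overlapped for Thbs1 and Tnc, for Tnc and Tgfbi and for Postn and Thbs3, and were apart for the other pairs. In SMOC2_normal the leading gene was Thbs1 (16.3 ± 1.05), followed by Fn1 (10.9 ± 4.15) and Tgfbi (2.98 ± 0.741; SD, n = 3), and Tnc stood in the seventh place at 0.824 ± 0.0789. In WT_UUO the order was led by Fn1 (75.4 ± 12.2), Thbs1 (39.7 ± 4.40), Tgfbi (23.5 ± 2.59) and Tnc (20.1 ± 3.66; SD, n = 4), the last pair overlapping. In WT_normal it was led by Thbs1 (17.9 ± 3.83) and Fn1 (13.8 ± 1.61; SD, n = 3), which overlapped, with Tgfbi at 3.75 ± 1.24. Fn1 ranked 370 of 17873 genes by level per length in SMOC2_UUO and 424 in WT_UUO, against 4817 in SMOC2_normal and 3920 in WT_normal.

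**Figure D3:**
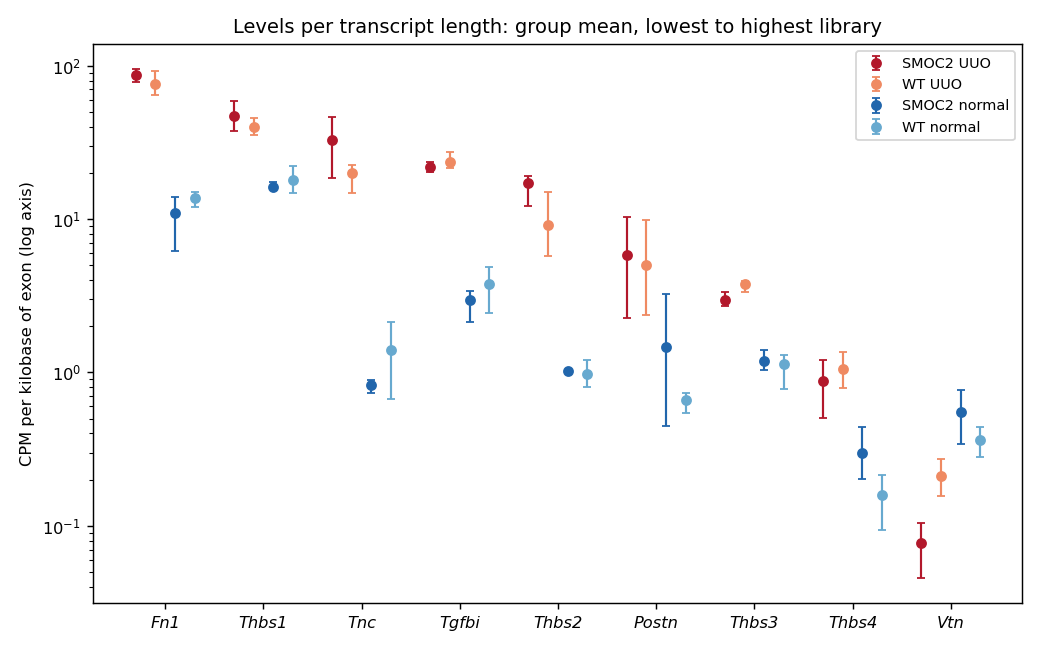
Mean CPM per kilobase of exon of each gene on a log axis in the 4 groups, with lines from the lowest to the highest library. Fn1 leads in both obstructed groups, at 86.4 and 75.4, and Thbs1 in both untreated groups, at 16.3 and 17.9. In WT_normal the libraries of Thbs1 and Fn1 overlap.

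Between genotype labels, none of the 9 genes passed the edgeR test in obstructed or in untreated kidney. In SMOC2_UUO against WT_UUO, 0 of 9 were called by edgeR, where 0.831% of all genes changed. DESeq2 called 1, limma-voom 0, and 4 had an unadjusted edgeR p under 0.05, where 15.2% of all genes did. Those 4 were Thbs2, Tnc, Thbs3 and Vtn. Thbs2 averaged 120 ± 23.6 CPM in SMOC2_UUO and 64.5 ± 29.4 CPM in WT_UUO (SD, n = 4 each), and WT_UUO library 1 at 106 CPM lay within the range of the SMOC2_UUO libraries. Its log2 difference was 0.89 (95% interval 0.36 to 1.42, edgeR adjusted p = 0.0987). It was the gene DESeq2 called (log2 0.90, adjusted p = 0.0137), and without WT_UUO library 1 edgeR called it too (log2 1.24, adjusted p = 0.0158), over a range of adjusted p from 0.0137 to 0.211 in all alternatives. Tnc averaged 253 ± 88.2 CPM in SMOC2_UUO and 157 ± 28.5 CPM in WT_UUO (SD, n = 4 each), with a log2 difference of 0.69 (95% interval 0.08 to 1.31, edgeR adjusted p = 0.261), and the groups overlapped.

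Fibroblast marker RNA also varied among the obstructed libraries. The 8 fibroblast and myofibroblast markers summed to 4826, 5004, 4722 and 3714 CPM in SMOC2_UUO libraries 1 to 4, against 4941, 3123, 4430 and 2816 CPM in WT_UUO libraries 1 to 4. In the wild-type group the library with the highest sum, library 1, also had the most Thbs2, and library 4 had the least of both. In SMOC2_UUO, library 2 had the highest sum and the least Thbs2, and library 4 had the lowest sum with Thbs2 at 132 CPM. None of the 8 markers was called between the labels by edgeR, where 0.831% of all genes were. The part of these markers in the Thbs2 and Tnc values was not tested.

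Vtn was the gene of the 9 whose obstructed groups did not overlap in scaled level, where 9.85% of all genes did not. This rested on few reads, 17 counts over the 4 SMOC2_UUO libraries and 46 over the 4 WT_UUO libraries. The log2 difference of Vtn was -1.42 (95% interval -2.24 to -0.60, edgeR adjusted p = 0.0952). With only the obstructed groups in the fit, Vtn did not pass the filter and was not tested. Thbs3 was at 14.2 ± 1.39 CPM in SMOC2_UUO and 18.3 ± 1.35 CPM in WT_UUO (SD, n = 4 each; log2 difference -0.36, 95% interval -0.68 to -0.04, edgeR adjusted p = 0.267). The intervals of the other 5 genes included 0. They were -0.23 to 0.62 for Fn1, -0.09 to 0.57 for Thbs1, -0.48 to 0.27 for Tgfbi, -0.99 to 1.44 for Postn and -0.89 to 0.38 for Thbs4, so differences of those sizes cannot be told from 0 here.

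In SMOC2_normal against WT_normal, edgeR called 0 of the 9 genes, where 0.0279% of all genes changed, and 0 had an unadjusted p under 0.05, where 12.8% of all genes did; DESeq2 and limma-voom also called 0. All 9 genes overlapped between these groups, where 16.8% of all genes did not. The widest interval was that of Postn (log2 1.16, 95% interval -0.42 to 2.73, edgeR adjusted p = 0.531), whose mean of 12.8 ± 13.4 CPM in SMOC2_normal rested on library 3, against 5.72 ± 0.909 CPM in WT_normal (SD, n = 3 each). Without that library the log2 difference was -0.19.

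**Figure D4:**
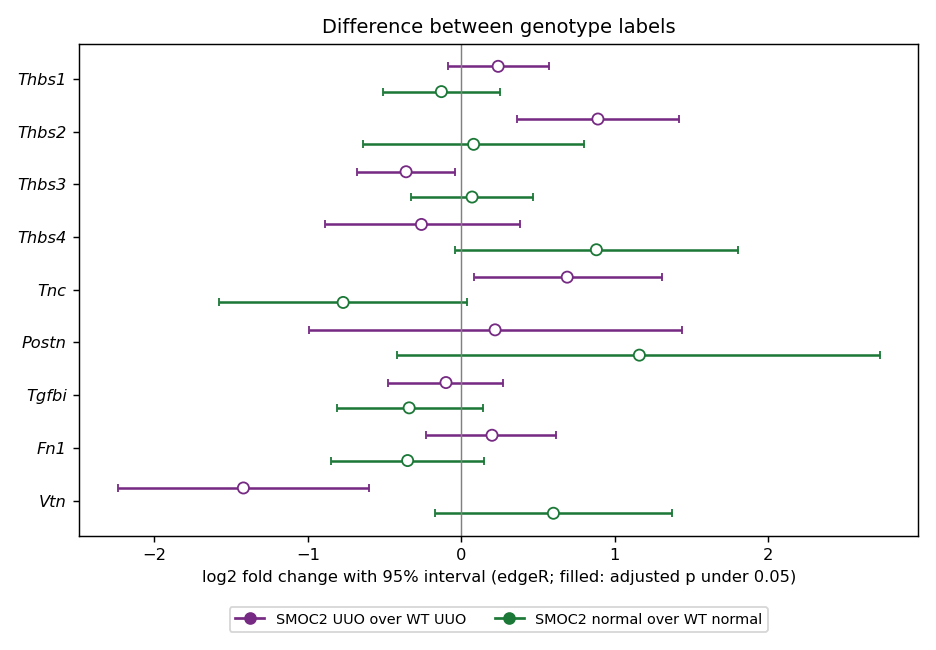
log2 difference between genotype labels with its 95% interval, in obstructed and in untreated kidney. All points are open, since 0 of 9 genes passed the edgeR test at an adjusted p under 0.05; in obstructed kidney Thbs2 is at 0.89 and Vtn at -1.42.

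Whether the obstruction response differed between the labels was tested as an interaction, which uses the same 14 libraries as the comparisons above. By edgeR, 0 of the 9 genes and 0.0% of all genes passed, and 3 of the 9 had an unadjusted p under 0.05, where 6.44% of all genes did. DESeq2 and limma-voom called 0 of the 9. The largest estimates were those of Vtn (log2 -2.02, 95% interval -3.15 to -0.90, edgeR adjusted p = 0.568), Tnc (log2 1.46, 95% interval 0.45 to 2.48, edgeR adjusted p = 0.638) and Thbs4 (log2 -1.14, 95% interval -2.26 to -0.02, edgeR adjusted p = 0.770). The different folds given above for the labels were therefore not shown to differ.

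Likeness of pattern was measured as the root mean square difference between log2 CPM values over the 14 libraries, each gene centred on its own mean. The closest pair among the 9 was Fn1 and Tgfbi, at 0.245. Outside the 9, the genes closest to Fn1 were Axl (0.208) and Lbh (0.209), those closest to Tgfbi were Cmtm3 (0.194) and Rasal3 (0.196), and those closest to Thbs1 were Fat1 (0.141) and Msn (0.161). Thbs3 lay closest to St6galnac6 (0.179) and Pcdhb20 (0.186), and Thbs4 to Lockd (0.351) and Sync (0.375). Thbs2 lay closest to Itih4 (0.384) and P2ry13 (0.404), Tnc to Kif1a (0.405) and Medag (0.424), and Postn to Oacyl (0.491) and Nptx2 (0.543). Vtn lay closest to Ethe1 (0.347) and Thrsp (0.381), and its nearest of the 9, Thbs1, was at 1.55.

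Of 21 genes listed here as receptors of these proteins, all tested, 16 rose and 2 fell in SMOC2_UUO, where 32.5% of all genes rose and 30.4% fell. In WT_UUO 15 rose and 3 fell, where 31.3% of all genes rose and 29.8% fell. Their median log2 changes were 1.11 in SMOC2_UUO and 0.97 in WT_UUO, against 0.04 and 0.05 over all genes. The integrin beta 3 gene Itgb3, whose product pairs with alpha V in the classical vitronectin receptor, was at 12.0 ± 0.786 CPM in SMOC2_UUO (SD, n = 4) against 2.01 ± 0.372 CPM in SMOC2_normal (SD, n = 3; log2 2.57, edgeR adjusted p = 1.96e-08), and at 9.26 ± 1.01 CPM in WT_UUO against 2.21 ± 0.158 CPM in WT_normal (log2 2.06, edgeR adjusted p = 8.39e-08). Itga4, a subunit of a fibronectin receptor of leukocytes, rose by log2 2.34 in SMOC2_UUO and 2.37 in WT_UUO. Itga5, the partner of beta 1 in the main fibronectin receptor, rose to 48.5 ± 3.91 CPM in SMOC2_UUO, against 12.8 ± 1.98 CPM in SMOC2_normal (log2 1.92, edgeR adjusted p = 7.08e-08), and by log2 1.38 in WT_UUO. Cd47 rose by log2 1.2 in SMOC2_UUO and 1.13 in WT_UUO, and Plaur, the urokinase receptor, by log2 2.16 in SMOC2_UUO and 1.85 in WT_UUO. Cd36, the thrombospondin and fatty acid receptor, fell by 1.78 in SMOC2_UUO and by 1.62 in WT_UUO on the log2 scale, and Itgb8 fell by 1.32 and by 1.49. Calr, which encodes calreticulin, was the gene of this list called between the labels in obstructed kidney, where 0.831% of all genes were called. It was at 1324 ± 58.7 CPM in SMOC2_UUO and 902 ± 74.7 CPM in WT_UUO (SD, n = 4 each, log2 0.55, edgeR adjusted p = 0.0380). Calr was also among the 3 genes that fell in WT_UUO (log2 -0.29, edgeR adjusted p = 0.0472). Where in the cell its protein lies was not measured. Between the untreated groups and in the interaction, 0 of 21 receptor genes passed edgeR, where 0.0279% and 0.0% of all genes passed.

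**Figure D5:**
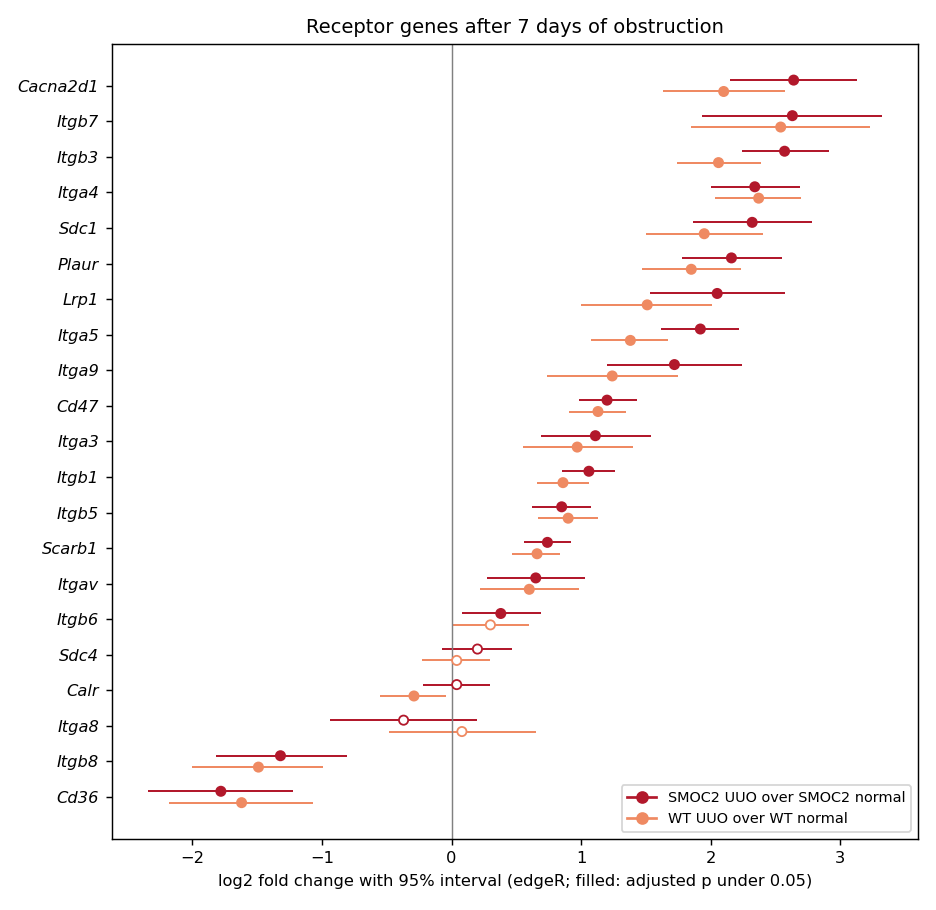
log2 fold change of 21 receptor genes after obstruction with 95% intervals, in kidneys labelled SMOC2 and in wild-type kidneys; filled points passed edgeR at an adjusted p under 0.05. Cd36 and Itgb8 lie left of 0 under both labels, at -1.78 and -1.32 in SMOC2_UUO and at -1.62 and -1.49 in WT_UUO.

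Of 18 genes for TGF-beta ligands, cross-linking and cleaving enzymes and other regulators of these proteins, 13 rose and 3 fell under each label, where 32.5% of all genes rose and 30.4% fell in SMOC2_UUO, and 31.3% rose and 29.8% fell in WT_UUO. Their median log2 changes were 1.38 in SMOC2_UUO and 1.60 in WT_UUO, against 0.04 and 0.05 over all genes. Mmp14, a membrane-bound metalloproteinase that cleaves fibronectin, rose by log2 3.75 in SMOC2_UUO (edgeR adjusted p = 1.94e-08) and 3.46 in WT_UUO (edgeR adjusted p = 3.36e-08). Adamts1, a metalloproteinase with thrombospondin repeats, rose by log2 2.20 and 2.36, and Bmp1, the procollagen C-proteinase, by log2 2.33 and 2.28. Tgfb1 rose by log2 2.34 in SMOC2_UUO and 1.74 in WT_UUO. Furin, a proprotein convertase, was the gene of this list called between the labels in obstructed kidney, where 0.831% of all genes were called. Furin was at 221 ± 19.1 CPM in SMOC2_UUO and 162 ± 14.5 CPM in WT_UUO (SD, n = 4 each, log2 0.45, edgeR adjusted p = 0.0300). After obstruction it fell by 0.81 in SMOC2_UUO and by 0.88 in WT_UUO on the log2 scale.

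Of 6 other genes of these protein families, Tnr did not pass the filter, and of the 5 tested, 1 rose and 0 fell in SMOC2_UUO, where 32.5% of all genes rose and 30.4% fell, and 1 rose and 3 fell in WT_UUO, where 31.3% rose and 29.8% fell. Their median log2 changes were -0.73 in SMOC2_UUO and -1.45 in WT_UUO, and with 5 genes these counts are given as a description. The one that rose was Stab1, a scavenger receptor of macrophages and sinusoidal endothelium with fasciclin-like domains, at log2 1.62 in SMOC2_UUO and 1.53 in WT_UUO. Comp, the thrombospondin of cartilage, was at 0.379 ± 0.186 CPM in WT_UUO (SD, n = 4) against 1.69 ± 1.02 CPM in WT_normal (SD, n = 3), a fall of log2 -2.12 (edgeR adjusted p = 0.00371), and at log2 -0.73 in SMOC2_UUO (adjusted p = 0.287). Tnxb, tenascin X, fell in WT_UUO (log2 -0.70, edgeR adjusted p = 0.0430) and was at log2 -0.64 in SMOC2_UUO (adjusted p = 0.0634). Stab2 fell in WT_UUO (log2 -1.70, edgeR adjusted p = 0.0447) and was at log2 -1.44 in SMOC2_UUO (adjusted p = 0.108). Tnn, tenascin N, was at log2 -1.49 in SMOC2_UUO (adjusted p = 0.122) and -1.45 in WT_UUO (adjusted p = 0.126).

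Markers of interstitial cells moved with the rise of the matrix genes. Over all genes, 32.5% rose and 30.4% fell in SMOC2_UUO, and 31.3% rose and 29.8% fell in WT_UUO. All 8 fibroblast and myofibroblast markers rose under both labels, and their sum was 3714 to 5004 CPM in SMOC2_UUO and 2816 to 4941 CPM in WT_UUO, against 190 to 363 CPM in SMOC2_normal and 250 to 575 CPM in WT_normal. Of 5 macrophage markers, 4 rose in SMOC2_UUO and 5 in WT_UUO, with sums of 578 to 744 CPM in SMOC2_UUO and 596 to 732 CPM in WT_UUO, against 168 to 231 CPM in SMOC2_normal and 167 to 204 CPM in WT_normal. All 9 kidney epithelial markers fell under both labels. Of 4 red cell markers 3 could be tested and 0 changed by edgeR under either label. Over all genes, 62.8% changed in SMOC2_UUO and 61.1% in WT_UUO. The part of these cells in the levels of the 9 genes was not tested.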

How the data were processed

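Raw counts per gene were deposited by the authors as whole numbers, one table per library and without normalization or pooling; STAR 2.4.1d, featureCounts 1.4.4 (Subread) and build mm10 are named in the submitters' processing notes. Per the labels' protocols, messenger RNA libraries were made with a stranded kit; neither the annotation nor the strand setting of the counting is given in the sources used here. Of 47729 identifiers, 47310 matched GENCODE M21, which gave symbols, coordinates and exonic lengths; the other 419 held 0.0288% of counts.

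Here, edgeR 4.0.16 in R 4.3.3 kept 17926 genes (filterByExpr on the 4 groups), scaled by TMM, modelled the 14 libraries with a mean per group, and tested 5 comparisons by quasi-likelihood. P-values were adjusted by Benjamini and Hochberg's method across the genes tested, with a threshold of 0.05. As alternatives, scaling was by median ratios or upper quartiles, the filter was dropped or set to 50 counts in 3 libraries, the tool was DESeq2 1.42.0 or limma-voom (limma 3.58.1), a replicate block was added, the fit held only the groups compared, and single libraries were omitted in turn. The steps were tested on simulated counts in which 200 genes changed. The obstruction comparisons called far more genes, so that test does not cover changes as broad as theirs. No libraries were identical. The precision of a level is limited by its counts, which are not independent molecules.

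The 9 genes, 3 pathway lists and 8 marker lists were chosen with earlier results of these data known. Beside the 9 and Smoc2, genes named are the up to 4 of each pathway list with the smallest p in a comparison, all family relatives, markers, and the 2 genes of closest pattern to each of the 9. A gene of the regulator list that the rule names is not reported here. Itgb8, Cd36, Furin in the obstruction comparisons, Mtx1, 8030451A03Rik, Gm29233 and Apol7d were named after their values were seen.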

Additional observations from a re-analysis of the deposited data

Results flagged for a closer look

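In 18 groups of 4 obstructed libraries (9 genes under 2 labels), 3 held a library whose gap to the nearest other, as a share of the group's range, was above the 95% critical value of Dixon's test at 4 samples; chance flags about 1 group in 20. Thbs2 in SMOC2_UUO library 2 was at 84.4 CPM, below 130 to 133 CPM in the other 3 libraries. Thbs3 in WT_UUO library 4 was at 16.2 CPM, below 18.7 to 19.1 CPM in the others. Tnc in WT_UUO library 4 was at 114 CPM, below 167 to 174 CPM in the others. WT_UUO library 4 was the lowest of its group for 5 of the 9 genes, as SMOC2_UUO library 4 was in its own group.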

How the results depend on the processing

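Under all alternatives run, the calls and directions of the 9 genes in the obstruction comparisons were kept except for Postn in SMOC2_UUO (above) and Vtn in WT_UUO, which passed without WT_UUO library 4 (log2 -0.93, adjusted p = 0.0493). With 50 counts in 3 libraries Vtn was not tested, which left 8 called in SMOC2_UUO. Vtn was also not tested in SMOC2_UUO against WT_UUO when the fit held only those groups. Leaving out a library gave 8 to 9 called genes under each label. In SMOC2_UUO against WT_UUO the count was 1 by DESeq2 (Vtn had no adjusted p there) and 0 to 1 with a library left out. Signs that turned belonged to uncalled differences: with a library left out, Postn ran from -0.20 to 0.77 in SMOC2_UUO against WT_UUO; in SMOC2_normal against WT_normal Thbs1 ran from -0.25 to 0.05, Thbs2 from -0.05 to 0.25, Thbs3 from -0.14 to 0.19 and Postn from -0.19 to 1.59; in the interaction Postn ran from -1.37 to 0.42 and Tgfbi from -0.02 to 0.47. The cause was not tested.

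Over all genes, the count called in SMOC2_UUO against WT_UUO was 149, against 757 by DESeq2, 232 by limma-voom, 39 with only the groups compared and 29 to 158 with a library left out. In SMOC2_normal against WT_normal it was 5, against 12 with no filter, 172 by DESeq2, 9 by limma-voom, 8 with only the groups compared and 5 to 21 with a library left out. In the interaction it was 0, against 1 with no filter, 25 by DESeq2 and 0 to 2 with a library left out. In SMOC2_UUO against WT_UUO, DESeq2 called 4 receptor genes and 3 regulators, where edgeR called 1 of each. It called 1 regulator in SMOC2_normal against WT_normal, where edgeR called 0, and 2 family relatives in SMOC2_UUO against SMOC2_normal, where edgeR called 1. With upper-quartile scaling all genes had a median change of 0.152 (log2) in SMOC2_UUO against SMOC2_normal and 0.157 in WT_UUO against WT_normal, where TMM gave 0.036 and 0.045, and no direction of the 9 turned in these comparisons.

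Same-numbered libraries did not deviate together from their group means (correlations from -0.0898 to 0.132), so the numbers were not taken to pair them. With the replicate block, 9 and 8 of the 9 genes were called in the obstruction comparisons and 0 in the others, and the count over all genes fell to 69 in SMOC2_UUO against WT_UUO and was 1 in the interaction. Depth limits Vtn most, with 3 to 6 counts per SMOC2_UUO library.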
